A study of Mus musculus with 6 samples.

Results

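The monocyte-attracting CC chemokines Ccl2, Ccl3, Ccl4, Ccl5, Ccl6, Ccl7, Ccl8, Ccl9, Ccl11 and Ccl12 were examined in mouse skin. They were chosen by name, as the rows of the deposited table whose single platform gene symbol was one of these 10, and all 10 were found, each with 1 probe, among 18617 named genes. Skin of 3 LynDN transgenic mice was set against skin of 3 wild-type (WT) mice on 2-colour arrays, which report the ratio of 2 RNAs at each spot. LynDN is spelled LynDeltaN in the title of the series, and Lyn is a Src family tyrosine kinase that acts in leukocyte signalling. Each LynDN mouse was hybridised with 1 WT mouse on 2 arrays with the dyes exchanged (a dye swap), which gave 3 mouse pairs and 6 arrays. The pairs are numbered by their LynDN mouse: LynDN mouse 1 shared its arrays with WT mouse 1 (pair 1), LynDN mouse 2 with WT mouse 3 (pair 2) and LynDN mouse 3 with WT mouse 2 (pair 3). The sources used here do not give the strain, sex or age of the mice, the promoter that drives the transgene or the site of the skin.

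Chemokines are small secreted proteins that draw leukocytes along a gradient by binding G protein-coupled receptors, and the CC class is named for its adjacent cysteines. Ccl2, Ccl7 and Ccl12 are the main ligands of Ccr2, through which inflammatory monocytes leave the marrow and enter tissue. Ccl3, Ccl5, Ccl6 and Ccl9 act on Ccr1. Ccl11 (eotaxin) draws eosinophils through Ccr3, and mouse Ccl8 is known as a ligand of Ccr8, so the label holds less well for these members than for the Ccr2 ligands. In skin such chemokines come from macrophages, fibroblasts, endothelium and keratinocytes, among others.

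Every ratio keeps its deposited sign, since the sources used here do not say which genotype is the numerator. The 4 arrays of pairs 2 and 3 correlated positively across rows, with Pearson r from 0.430 to 0.643 and Spearman rho from 0.127 to 0.514 (genes are not independent replicates), and their ratios were taken to run in one direction. Among them, arrays of different mice in the same dye orientation gave r of 0.643 and 0.631. The 2 arrays of a swap, which hold the same mice, gave lower values of 0.463 and 0.462. Within the swap of pair 1, r was 0.024 and rho -0.18, so its direction cannot be read from all rows at once. The 4 genes that passed the limma test described below were positive on both its arrays. With LynDN in Cy3 and in Cy5, S100a9 had 5.33 and 5.97, S100a8 4.04 and 4.90, Krt16 2.45 and 2.32 and Ccl20 1.90 and 2.39. Eif2s3y (3.38 and 3.62), Kdm5d (1.46 and 1.02) and Xist (-1.31 and -0.80) also kept their signs. Uty (-0.11 and 0.24) and Sox2 (0.88 and -1.12) did not. The 4 genes that passed were chosen by a fit on swap means, where opposite signs within pair 1 would cancel. They therefore cannot test its direction, and the 2 arrays of pair 1 were taken to run in the same direction without such a test. As background, an N-terminally shortened Lyn causes skin inflammation resembling psoriasis in mice, and with that in view LynDN may be the numerator. However, Lyn itself was not analysed here (0 probes), and positive and negative therefore mark opposite sides only. If WT were the numerator, every sign below would turn at once. Folds assume that the logs are to base 2. No spot intensities were used, so it cannot be said which chemokines lay above background, the level of 1 gene cannot be set against another, and the tissue could not be checked against its markers by level. In bulk skin, a change in the number of cells of a type and a change in RNA per cell cannot be told apart.

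All 10 genes lie on mouse chromosome 11, in 2 groups of neighbours in the RefSeq gene table of GRCm38.p6. The first group runs Ccl2, Ccl7, Ccl11, Ccl12, Ccl8, followed by Ccl1. The second runs Ccl5, the pseudogene Ccl16-ps, Ccl9, Ccl6, Ccl3 and Ccl4. RefSeq promoter sequences (GRCm38.p6, 250 bases before to 50 after the gene start) were matched for 5 members: Ccl3, Ccl6, Ccl8, Ccl9 and Ccl12. The promoters of Ccl8, Ccl12 and Ccl9 are shown, because these 3 of the 5 held a match to a motif searched, while those of Ccl3 and Ccl6 held none. Ccl8 lies on the plus strand at chr11:82114935-82115234, Ccl12 on the plus strand at chr11:82101595-82101894 and Ccl9 on the minus strand at chr11:83578587-83578886. Capitals mark matches to a TATA box (TATAAA) or an AP-1 motif (TGANTCA), searched on both strands. In the Ccl9 promoter 2 matches to the TATA letters, 1 on each strand, overlap.
Ccl8: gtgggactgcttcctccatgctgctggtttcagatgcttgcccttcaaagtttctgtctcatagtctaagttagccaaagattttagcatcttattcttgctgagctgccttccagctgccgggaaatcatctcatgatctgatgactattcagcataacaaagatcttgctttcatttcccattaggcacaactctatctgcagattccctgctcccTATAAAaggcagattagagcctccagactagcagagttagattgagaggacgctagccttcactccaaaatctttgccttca
Ccl12: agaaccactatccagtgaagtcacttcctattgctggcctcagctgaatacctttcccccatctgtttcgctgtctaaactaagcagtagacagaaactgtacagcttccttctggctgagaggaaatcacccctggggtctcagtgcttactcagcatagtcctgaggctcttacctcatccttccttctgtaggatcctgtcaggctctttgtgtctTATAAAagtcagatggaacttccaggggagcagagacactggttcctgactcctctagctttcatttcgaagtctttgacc
Ccl9: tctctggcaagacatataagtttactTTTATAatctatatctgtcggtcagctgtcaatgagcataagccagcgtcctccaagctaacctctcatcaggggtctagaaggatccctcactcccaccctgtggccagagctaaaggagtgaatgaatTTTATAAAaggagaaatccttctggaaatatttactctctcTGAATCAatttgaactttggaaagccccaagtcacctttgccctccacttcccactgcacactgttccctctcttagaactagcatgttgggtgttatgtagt

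The TATA letters began 32 bases before the gene start in Ccl8 and 31 bases before it in Ccl12. They occurred in 3 of the 5 member promoters (Ccl8, Ccl9 and Ccl12) and in 13.6% of all 32851 promoters of this length. The AP-1 letters occurred in Ccl9 alone among the 5, 53 bases before the start, and in 7.81% of all promoters. A C/EBP motif (TTGCNNAA) was in 0 of the 5 and in 10.8% of all promoters. These matches describe the letters of this window, and the arrays measured no binding.

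Ccl8 had the largest mean ratio of the 10 chemokines, and the largest in pairs 2 and 3, while in pair 1 Ccl6 and Ccl11 were above it. On the arrays with LynDN in Cy3 and in Cy5 it had log2 ratios of -0.06 and 0.21 for pair 1, 2.28 and 2.19 for pair 2 and 2.04 and 1.93 for pair 3. Pair 1 thus lay near 0, while the other pairs lay near 4-fold and did not overlap with it. The mean over the 3 pair values was 1.43 ± 1.18 (SD, n = 3), with a 95% interval from 0.31 to 2.55 in the limma fit. It did not pass that test (adjusted p = 0.339 in limma, over 22879 rows), and it ranked 68th from the top by mean ratio.

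Ccl2, the prototype monocyte attractant and a ligand of Ccr2, had a smaller ratio, also higher in pairs 2 and 3 than in pair 1. Its log2 ratios were -0.12 and -0.12 for pair 1, 0.84 and 1.18 for pair 2 and 0.81 and 1.22 for pair 3, again with LynDN in Cy3 first. The mean was 0.63 ± 0.65 (SD, n = 3; interval 0.00 to 1.26, limma adjusted p = 0.403). The pair means of pairs 2 and 3 were nearly the same, at 1.01 in each, and pair 1 was on the other side of 0.

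The other Ccr2 ligands, Ccl7 and Ccl12, had lower mean ratios than Ccl2, and were likewise higher in pairs 2 and 3. Ccl7 had -0.18 and -0.30 for pair 1, 0.46 and 1.01 for pair 2 and 0.39 and 0.92 for pair 3. In pairs 2 and 3 the arrays with LynDN in Cy5 gave the higher Ccl7 value, and the mean was 0.38 ± 0.54 (SD, n = 3; limma adjusted p = 0.513). Ccl12 had 0.09 and -0.17 for pair 1, 0.78 and 0.34 for pair 2 and 0.77 and 0.98 for pair 3. The Ccl12 mean was 0.46 ± 0.46 (SD, n = 3; limma adjusted p = 0.399), and its arrays of pair 2 differed by 0.44.

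Ccl11, the eosinophil attractant, had log2 ratios of -0.14 and 0.34 for pair 1, 0.33 and 0.60 for pair 2 and 0.24 and 0.54 for pair 3. In every pair the array with LynDN in Cy5 was the higher one, so that array of pair 1 overlapped with those of pairs 2 and 3. The mean was 0.32 ± 0.19 (SD, n = 3; interval 0.10 to 0.54, limma adjusted p = 0.307). Eosinophil markers stayed near 0, with pair values between -0.18 and 0.28 over the 6 measured genes.

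Ccl6 and Ccl9, neighbouring genes of rodents whose products act on Ccr1, were positive in pairs 2 and 3 as well. Ccl6 had 0.26 and 0.16 for pair 1, 1.05 and 0.81 for pair 2 and 0.89 and 0.65 for pair 3. It was the only member positive on all 6 arrays, a property of 3.72% of all rows, and it had the smallest p of the 10. Its mean was 0.64 ± 0.38 (SD, n = 3), with an interval from 0.26 to 1.01 and an adjusted p of 0.281 in limma. Ccl9 had -0.26 and 0.10 for pair 1, 0.51 and 0.71 for pair 2 and 0.95 and 1.05 for pair 3. The mean of Ccl9 was 0.51 ± 0.55 (SD, n = 3; limma adjusted p = 0.418), and pair 3 exceeded pair 2 by 0.39, more than the arrays differed within either of these swaps.

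Ccl3, Ccl4 and Ccl5, inflammatory chemokines made by macrophages and lymphocytes, had the smallest ratios. Ccl3 had 0.06 and -0.19 for pair 1, 0.48 and 0.12 for pair 2 and 0.32 and 0.05 for pair 3, with a mean of 0.14 ± 0.19 (SD, n = 3). Its interval in the limma fit ran from -0.08 to 0.36 (adjusted p = 0.552). Ccl4 was the only member with a negative mean and was negative on all 6 arrays, as were 4.31% of all rows. Ccl4 had -0.05 and -0.20 for pair 1, -0.03 and -0.46 for pair 2 and -0.10 and -0.19 for pair 3, with a mean of -0.17 ± 0.07 (SD, n = 3; interval -0.31 to -0.03, limma adjusted p = 0.348). Ccl5, which also attracts T cells, had 0.07 and -0.18 for pair 1, 0.17 and -0.29 for pair 2 and 0.18 and 0.07 for pair 3. The Ccl5 mean was 0.00 ± 0.11 (SD, n = 3), with an interval from -0.16 to 0.16 (limma adjusted p = 0.986).

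**Figure D1:**
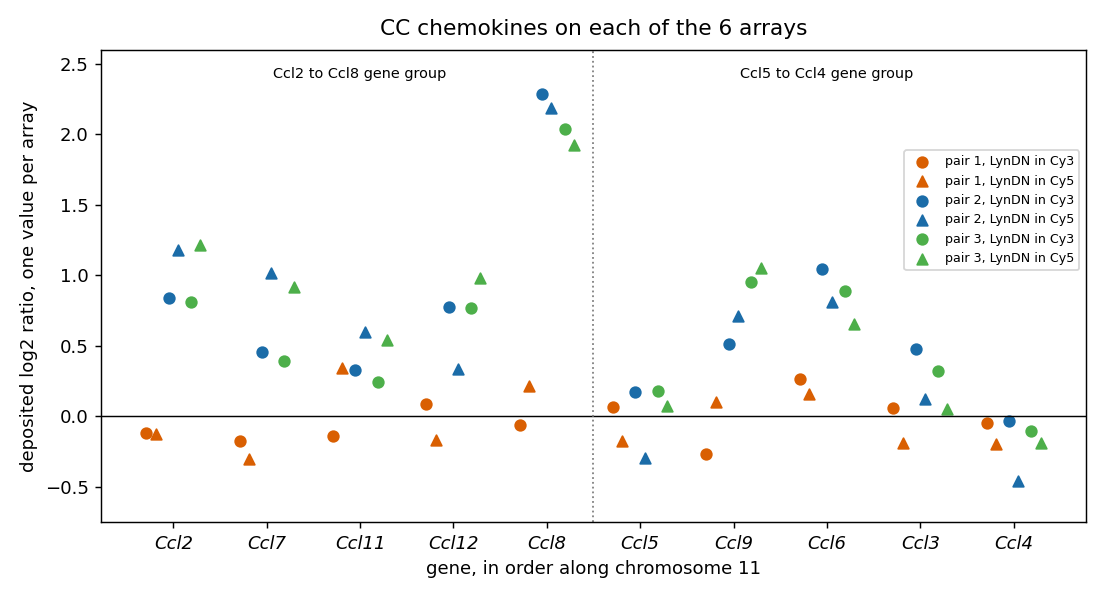
Deposited log2 ratio (vertical axis) of each of the 10 chemokines (horizontal axis, in order along chromosome 11) on each of the 6 arrays. Colours mark the mouse pairs, circles the arrays with LynDN in Cy3 and triangles those with LynDN in Cy5. Ccl8 lies near 2 in pairs 2 and 3 and near 0 in pair 1, and all values of Ccl4 are below 0.

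Over the 3 pairs, 9 of the 10 chemokines had a positive mean ratio, against 43.9% of all rows, and the median of the 10 means was 0.42 against -0.01 over all rows. Of the 10, 0 passed the limma test in either direction, where 0.0175% of all rows passed positive and 0% negative. At an unadjusted p under 0.05 there were 5 positive chemokines (Ccl2, Ccl6, Ccl8, Ccl11 and Ccl12; 5.92% of all rows) and 1 negative one (Ccl4; 6.41% of all rows). In the alternative limma fit, which takes all 6 arrays, a term for dye orientation and a random block for mouse pair, 0 of the 10 passed as well, against 1.06% of all rows, and 7 of them had an unadjusted p under 0.05, against 14.5% of all rows. The smallest adjusted p in that fit was 0.0627 for Ccl6. For all rows that fit uses the same correlation between the arrays of a pair (0.151), which treats them as nearly independent. Where the arrays of a swap agree more closely than the mouse pairs do, its p-values are too small. For Ccl8 the arrays of a swap differed by 0.27, 0.10 and 0.11, while the mean of pairs 2 and 3 lay 2.03 above pair 1. This limit holds for every pass in the block fit given below. The 4 genes that passed the limma test over the whole table were S100a9, S100a8, Krt16 and Ccl20, a CC chemokine that draws Ccr6-bearing cells. Ccl20 had 2.14, 2.01 and 2.23 in pairs 1, 2 and 3, so its ratio in pair 1 was as large as in the others, whereas that of Ccl8 was 0.08 there.

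In 9 of the 10 members the mean of pairs 2 and 3 lay above pair 1, with Ccl4 as the exception. The share of all rows with this order was not counted, so this count describes the members alone and shows no difference from other rows. The median over the 10 chemokines was -0.06 in pair 1, 0.59 in pair 2 and 0.71 in pair 3, against -0.00 to -0.02 over all rows. In pair 1 the values ran from -0.24 for Ccl7 to 0.21 for Ccl6, and 3 of 10 were positive, against 11314 of all 22879 rows. In 6 of the 10 (Ccl2, Ccl3, Ccl5, Ccl7, Ccl9 and Ccl12) pair 1 was negative and the mean of pairs 2 and 3 positive, as in 20.4% of all rows. The first chromosomal group (Ccl2, Ccl7, Ccl11, Ccl12 and Ccl8) was positive in all 5 members in pairs 2 and 3, with medians of 0.74 and 0.87. Of all 22879 rows, 10095 were positive in pair 2 and 10683 in pair 3. The second group had medians of 0.30 and 0.19 and held the members nearest to 0 and the negative one. On the 4 arrays of pairs 2 and 3 together, 8 of the 10 were positive throughout, against 11.2% of all rows, and the exceptions were Ccl4 and Ccl5.

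Without pair 1, the limma fit called 7 members, all positive, where 3.22% of all rows were called positive and 1.67% negative. They were Ccl8 with a mean log2 ratio of 2.11 (adjusted p = 0.00105), Ccl2 with 1.01 (0.00304), Ccl6 with 0.85 (0.00775), Ccl7 with 0.69 (0.0100), Ccl12 with 0.72 (0.0256), Ccl9 with 0.81 (0.0262) and Ccl11 with 0.43 (0.0333), each p adjusted in limma. Ccl8 then corresponded to 4.31-fold and ranked 56th of all rows by mean, and Ccl2 to 2.02-fold. Ccl3 had 0.24 and Ccl4 -0.19, and neither passed (limma adjusted p = 0.138 and 0.203). This fit rests on 2 mouse pairs, and pair 1 was left out with its values known. Without pair 2 or without pair 3, 0 of the 10 passed in limma, against 0.00874% and 0.0175% of all rows. Ccl6 alone had an unadjusted p under 0.05 in each, against 5.35% and 4.77% of all rows.

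**Figure D2:**
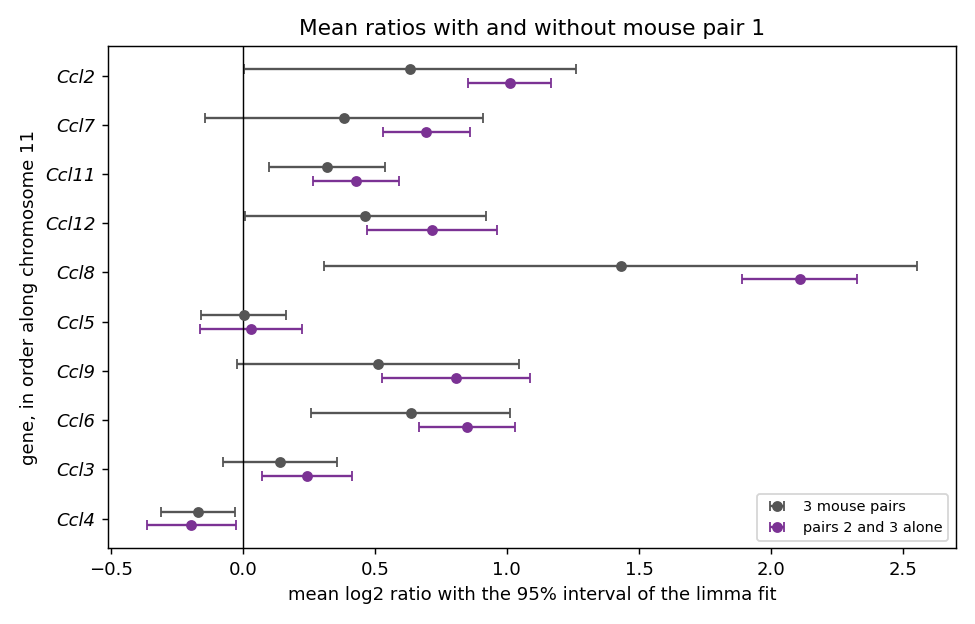
Mean log2 ratio (horizontal axis) of each chemokine with the 95% interval of the limma fit, over 3 mouse pairs (grey) and over pairs 2 and 3 alone (purple). Intervals of Ccl8 and Ccl2 are narrower and further from 0 without pair 1, and those of Ccl5 include 0 in both fits.

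Pair 1 also stood apart in sex-linked genes. For pairs 1, 2 and 3 the log2 ratios of the Y-linked gene Eif2s3y were 3.50, -0.00 and 0.03, and those of the Y-linked gene Kdm5d were 1.24, -0.05 and 0.13. Xist, the RNA that coats the silenced X chromosome, had -1.06, -0.09 and -0.14. Uty, also Y-linked and named here after its values were seen, had 0.07, 0.13 and -0.48. Eif2s3y, Kdm5d and Xist point to 2 mice of opposite sex in pair 1, while Uty does not show it, and the labels give no sex. Sex and genotype then cannot be told apart in that pair. The part of this difference in the chemokine ratios was not tested, since it rests on 1 pair. Of 194 rows with a mean of at least 2-fold positive in pairs 2 and 3, which include Ccl8 and Ccl2, 174 were positive in pair 1, Ccl8 among them. Their median in pair 1 was 0.33, with quartiles of 0.14 and 0.74. In pair 1, 31 of these rows lay at or below Ccl8 (0.08), and 8 lay at or below Ccl2 (-0.12), each count including the gene itself.

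**Figure D3:**
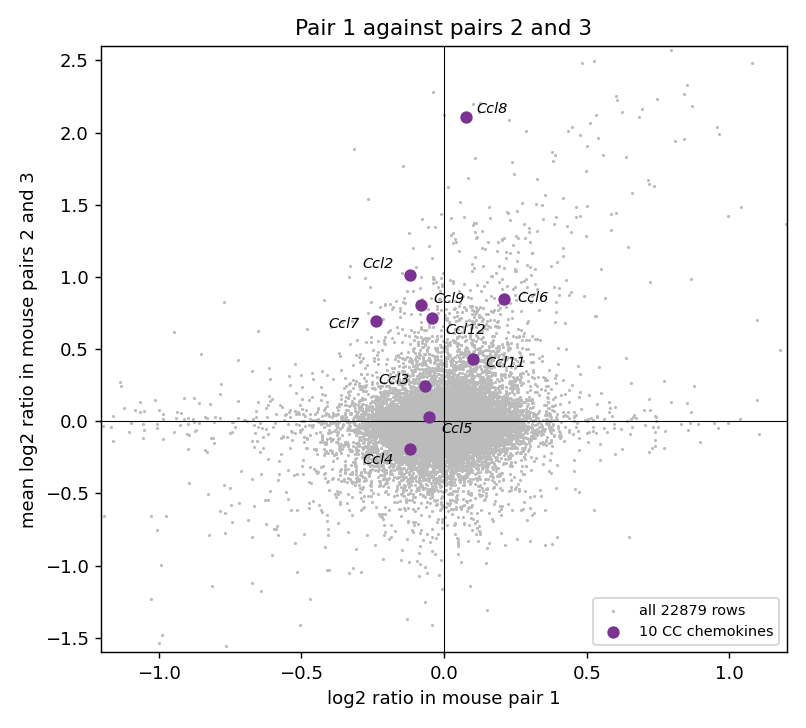
Log2 ratio in mouse pair 1 (horizontal axis) against the mean log2 ratio of pairs 2 and 3 (vertical axis) for all rows (grey) and for the 10 chemokines (purple, named), with 83 rows outside the axes. Ccl8, Ccl2, Ccl9, Ccl7, Ccl12 and Ccl6 lie between 0.69 and 2.11 on the vertical axis and between -0.24 and 0.21 on the horizontal one.

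Dye orientation was examined for each member. The orientation term, which is the deviation of the array with LynDN in Cy3 from the mean of its swap, was largest for Ccl11 at -0.18 and Ccl7 at -0.16 and smallest for Ccl8 at -0.01. In limma it was called for 0 of the 10 members (0.573% of all rows), while Ccl3, Ccl5 and Ccl11 had an unadjusted p under 0.05 (21.4% of all rows). The smallest adjusted p was 0.133 for Ccl11. The average of a swap cancels this term.

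Of the 4 measured receptors of these chemokines, Ccr1 had the largest ratios in pairs 2 and 3. Ccr1, the receptor of Ccl3, Ccl5, Ccl6 and Ccl9 on monocytes and neutrophils, had log2 ratios of 0.07 and 0.01 for pair 1, 0.82 and 0.80 for pair 2 and 0.76 and 0.94 for pair 3. The Ccr1 mean was 0.57 ± 0.46 (SD, n = 3; limma adjusted p = 0.341), and without pair 1 it was 0.83 and passed (limma adjusted p = 0.00562). Ccr2, the receptor of Ccl2, Ccl7 and Ccl12, had 0.03, -0.14 and 0.03 in pairs 1, 2 and 3. The eotaxin receptor Ccr3 had 0.15, 0.00 and 0.09, and Ccr8 had 0.03, 0.10 and 0.08, so that these 3 stayed within 0.15 of 0.

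Of the 4 atypical receptors, which do not signal through G proteins, Ccrl2, known to bind chemerin, had the largest ratios, all negative. It had -1.42 and -0.56 for pair 1, -1.37 and -0.09 for pair 2 and -1.82 and -0.69 for pair 3. The array with LynDN in Cy3 was the lower one in every pair, and the orientation term of -0.55 was called in limma (adjusted p = 0.0314). The mean of -0.99 ± 0.26 (SD, n = 3) did not pass over the 3 pairs (limma adjusted p = 0.160), and it passed in the block fit (adjusted p = 0.00788). The scavenger of inflammatory CC chemokines, Ackr2, had 0.06, -0.17 and 0.02 in pairs 1, 2 and 3. Ackr1, which binds chemokines on venules and red cells, had -0.01, 0.13 and 0.32, and Ackr4 had 0.11, -0.02 and 0.01.

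A list of monocyte growth factors held 5 measured genes, among them Csf3, which is a growth factor of neutrophils rather than monocytes. Of the 5, Csf1, the main growth factor of macrophages, had the largest mean. Csf1 had 0.14, 0.44 and 0.53 in pairs 1, 2 and 3, a mean of 0.37 ± 0.21 (SD, n = 3; limma adjusted p = 0.287), and it passed without pair 1 (limma adjusted p = 0.0253). Il34, the other ligand of the same receptor, had -0.30, -0.04 and -0.10. Csf2 had -0.08, 0.42 and 0.05, Csf3 had -0.10, 0.28 and 0.05, and the chemokine gene Cx3cl1 had -0.00, -0.27 and -0.11.

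Genes of NF-kB signalling, cytokines that induce it and its targets Il6 and Icam1 also had higher medians in pairs 2 and 3 than in pair 1. Of 13 measured genes, 13 had a positive mean, with medians of 0.11, 0.63 and 0.64 in pairs 1, 2 and 3. Over the 3 pairs 0 passed in limma, and 11 had an unadjusted p under 0.05, against 2820 of all 22879 rows. In the block fit 2 passed, and without pair 1, 9 passed, all positive. Nfkbiz and Nfkbia had means of 1.58 ± 0.64 and 0.88 ± 0.50 (SD, n = 3), and Bcl3 had 1.02 ± 0.50 (SD, n = 3). Their values in pair 1 were 0.84, 0.31 and 0.45, and all 13 genes ran from -0.09 to 0.84 there, against -0.24 to 0.21 for the 10 chemokines. Of 11 interferon response genes 0 passed in limma over 3 pairs, in the block fit or without pair 1 (0 and 5 at an unadjusted p under 0.05 over 3 pairs and without pair 1, the second against 19.6% of all rows), and their medians were -0.16, 0.08 and 0.29 in pairs 1, 2 and 3. Oas2, an antiviral enzyme, had -0.06, 0.28 and 0.48, and the T cell attractant Cxcl9 had -0.08, 0.29 and 0.38.

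The 10 other measured CC chemokines had medians of 0.08, -0.10 and 0.09 in pairs 1, 2 and 3, and without pair 1 Ccl20 passed positive and Ccl27a, a keratinocyte chemokine that draws skin-homing T cells, negative in limma. Both also passed in the block fit (adjusted p = 0.000288 and 0.0495). Ccl27a had -0.51, -1.08 and -1.74, and Ccl19, a ligand of Ccr7, had 0.13, 0.29 and 0.39.

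Markers of monocytes and macrophages also had higher medians in pairs 2 and 3 than in pair 1. Of 20 measured markers 18 had a positive mean, with medians of -0.05, 0.47 and 0.83 in pairs 1, 2 and 3. Over the 3 pairs 0 passed in limma, and 7 had an unadjusted p under 0.05, against 2820 of all 22879 rows. In the block fit 0 passed, and without pair 1, 13 passed, all positive. The Fc receptor gene Fcgr3 had -0.04, 0.85 and 1.15, Cd53 had -0.03, 0.84 and 1.14, and the lipopolysaccharide co-receptor gene Cd14 had 0.05, 0.46 and 0.58. In the 20 markers the values ran from -0.33 to 0.29 in pair 1, from -0.18 to 1.03 in pair 2 and from -1.08 to 1.66 in pair 3. The -1.08 was Itgam, named here after its values were seen, whose 2 arrays of pair 3 gave 0.10 and -2.26. The part of these markers in the chemokine ratios was not tested.

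The same held for neutrophil and mast cell markers, whose part was not tested either. Of 8 neutrophil markers 8 had a positive mean, with medians of 0.05, 0.61 and 0.50, and 6 passed without pair 1 in limma. Retnlg had 0.41, 3.70 and 3.33, and Csf3r had 0.23, 0.46 and 0.44 and was the 1 neutrophil marker that passed in the block fit (adjusted p = 0.0486). Of 8 mast cell markers 5 had a positive mean, with medians of -0.10, 0.36 and 0.29. Without pair 1, 4 passed positive, among them the histamine-synthesis gene Hdc with -0.09, 1.04 and 0.81. The 8 ran from -0.18 to 1.04 in pair 2 and from -0.07 to 0.81 in pair 3. T and NK cell markers (12 genes, 4 with a positive mean) had medians of -0.05, -0.05 and 0.06. The perforin gene Prf1 passed without pair 1, with 0.26, 0.62 and 0.57. The T cell receptor subunit gene Cd3g had -0.28, -0.46 and -0.24, and the granule gene Nkg7 had -0.39, -0.20 and -0.24, each negative on 6 of 6 arrays, and neither passed in limma over 3 pairs (adjusted p = 0.273 and 0.278), without pair 1 (0.0927 and 0.144) or in the block fit (0.0566 and 0.107).

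Lists of resident skin cells and of dendritic cells differed among themselves. Fibroblast markers (8 genes) had medians of -0.21, 0.01 and -0.07 in pairs 1, 2 and 3, and 0 passed in limma without pair 1 (5 at an unadjusted p under 0.05, where 19.6% of all rows were). Endothelial markers (8 genes) had -0.02, 0.08 and 0.07, with the adhesion molecule gene Sele passing without pair 1 (-0.10, 0.35 and 0.37). Dendritic and Langerhans cell markers (11 genes) had 0.06, -0.02 and 0.03, with Cd74, the MHC class II invariant chain, passing without pair 1 (0.08, 0.53 and 0.87). Keratinocyte markers (7 genes) had medians of 0.04, 0.23 and 0.28 and lay on both sides of 0: without pair 1, 1 of 7 passed positive and 3 negative. Krt14, the basal keratin, had 0.72, 1.67 and 1.62, and Krt15, a keratin of the basal layer and hair follicle, had a mean of -1.36 ± 0.33 (SD, n = 3). These 2 passed in the block fit as well (adjusted p = 0.0295 and 0.00475). Each pass in these lists is at an adjusted p in limma over all 22879 rows, and the share of all rows called without pair 1 is the 3.22% positive and 1.67% negative given above.

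**Figure D4:**
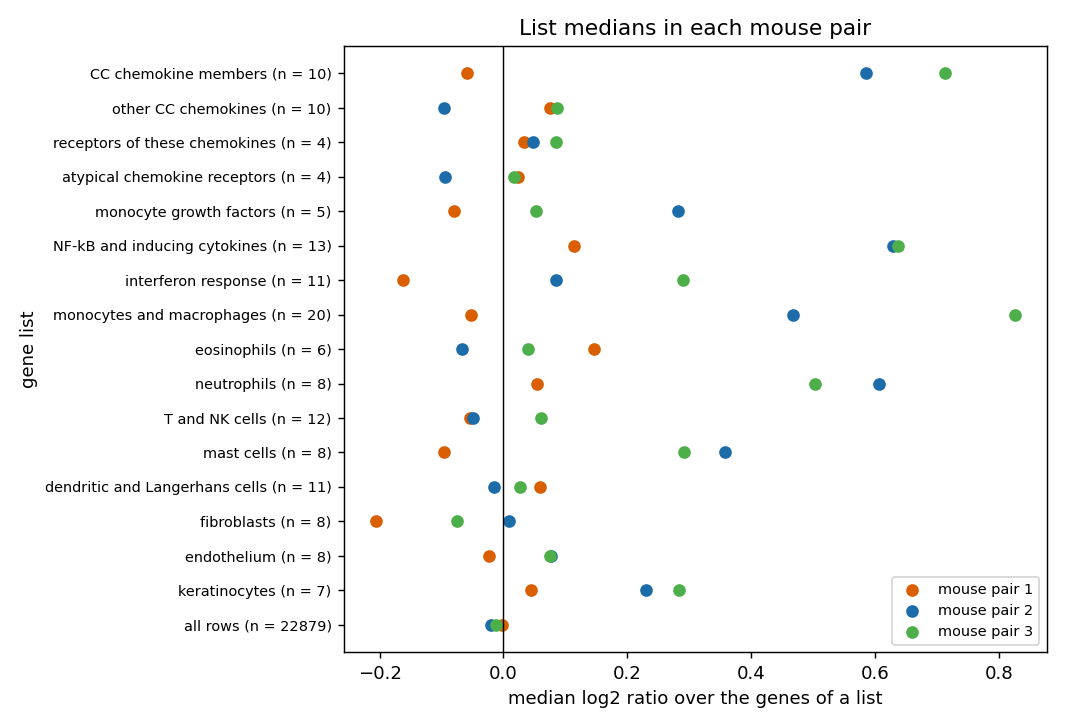
Median log2 ratio (horizontal axis) over the measured genes of each list (vertical axis, with the number of genes) in mouse pairs 1, 2 and 3. The chemokines, NF-kB genes and markers of macrophages and neutrophils lie between 0.47 and 0.83 in pairs 2 and 3 and between -0.06 and 0.11 in pair 1.

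The genes closest to Ccl8 over the 6 arrays, by the root mean square difference of their log2 ratios, were AA467197 (0.143), Klk9 (0.191), Sdcbp2 (0.218), Defb1 (0.250) and Trex2 (0.252). Their ratios in pair 1 lay between -0.04 and 0.29, and AA467197 had 0.12, 2.27 and 2.01 in pairs 1, 2 and 3. Those closest to Ccl6 were Cdsn (0.0945), Dhrs9 (0.0948), Prr13 (0.0958), Il20 (0.103) and Tmem165 (0.117). Cdsn had 0.20, 0.90 and 0.74 in pairs 1, 2 and 3, beside 0.21, 0.93 and 0.77 for Ccl6. Each of these rests on 6 arrays of 3 mouse pairs and is a description.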

How the data were processed

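Total RNA of mouse skin was extracted with Qiagen reagents and labelled with Ambion reagents, per the labels' protocols. The deposited table holds 1 log2 ratio for each of 25344 probes on each of 6 arrays, from -6.34 to 6.16, where base 2 was assumed. The scanner, background correction, numerator and normalization are unknown from the sources used here, and array medians lay between -0.02 and 0.00. Probes were named through the platform annotation: 21082 had 1 gene symbol, 30 had several and 4232 had none. Probes were averaged per symbol, which gave 22879 rows with the unnamed probes. Pairing comes from the labels, where both arrays of a swap name the same mice, and swaps were averaged to 3 pair values. Mice are separate animals per the labels. Each row's mean pair value was tested for a difference from 0 by lmFit and eBayes of limma 3.58.1 under R 4.3.3 (prior 2.96 degrees of freedom), with Benjamini-Hochberg adjustment over all rows at a threshold of 0.05. The orientation term was tested likewise. The script was tested on simulated data, where high recovery was required only for a change larger than that of any member. Recovery of smaller changes is not reported here. The number of arrays limits the precision. Python 3.11.15 and matplotlib 3.10.9 drew the figures.

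Named genes were all members, genes past the threshold, all receptors and growth factors of the lists, up to 3 genes with the smallest p of each other list, and the 5 genes closest to Ccl8 and to Ccl6. Members and lists were chosen with earlier results of these data known. Alternatives were leaving out each pair, a replicate block, quantile, median and scale normalization, probes as rows, probe medians and robust moderation. Leaving out 1 array with another date in its label was added after seeing the data.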

Additional observations from a re-analysis of the deposited data

Results flagged for a closer look

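Of 75 genes that the rule for named genes takes, 2 differed between arrays with LynDN in Cy3 and arrays with LynDN in Cy5 by limma's test of the orientation term, against 0.573% of all rows. The atypical receptor gene Ccrl2 deviated by -0.55 from the mean of its swap on arrays with LynDN in Cy3 (adjusted p = 0.0314), and was lower there in 3 of 3 pairs. The alarmin gene S100a8 deviated by -0.49 (adjusted p = 0.0410 in limma), also in 3 of 3 pairs. No chemokine of the 10 met this rule.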

How the results depend on the processing

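Without each mouse pair in turn, the number of members called ran from 0 to 7 and that of all rows from 2 to 1117 (4 with 3 pairs), and the median member ratio ran from 0.26 to 0.71. Both counts were highest without pair 1, where 7 members and 1117 rows (736 positive, 381 negative) passed in limma. The count of rows also moved with pair 1 kept. With the replicate block, which takes the mouse pair as random at a consensus correlation of 0.151, 243 rows and 0 members passed, with 7 members and 14.5% of all rows at an unadjusted p under 0.05. Quantile normalization gave 72 rows and 0 members. In an alternative chosen after seeing the data, the block fit without 1 array of pair 2 whose label carries another date gave 34 rows and 0 members. The orientation term was called for 131 rows, for 7 to 49 rows without each pair and for 6 after quantile normalization. Of 110 member values under 11 alternatives, 102 kept their direction and their side of the threshold, 7 passed without pair 1, and Ccl5 turned to -0.057 without pair 3 (0.032 without pair 1 and 0.035 without pair 2). Over these alternatives the mean of Ccl8 ran from 1.03 to 2.11 and that of Ccl2 from 0.44 to 1.01. Ccl4 stayed between -0.19 and -0.12. The causes were not tested. A filter on dim probes was not run, since it needs intensities, and signal over background is unknown for every member.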
